A study of Mus musculus with 18 samples.

Results

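Whole mammary glands of virgin female RonTK-/- mice were compared between 6 and 7 weeks of age. These mice lack the tyrosine kinase domain of Ron, the receptor encoded by Mst1r, and the series sets them beside RonTK+/+ controls at 5, 6 and 7 weeks. Its 18 Affymetrix arrays form 6 groups of 3. The comparison described here used the 3 RonTK-/- arrays of 6 weeks and the 3 of 7 weeks, 6 of the 18, chosen by their titles, and all 18193 genes measured. The labels state no treatment, no cell type for the deletion and no gland number, and they do not say whether the 3 arrays of a group came from separate animals, so p-values measure only the spread between these samples. RNA was taken from whole glands after fat was spun out of the extract, so any tissue left on the gland was also measured.

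Ron binds macrophage-stimulating protein, the product of Mst1, and signals to cell growth and movement. In a pubertal virgin gland the ducts lengthen and branch through a fat pad under ovarian hormones, growth hormone and epidermal growth factor ligands. Some mouse mammary glands hold a lymph node, and some lie against skeletal muscle of the body wall, so whole gland RNA can hold transcripts of both. Lymphocytes enter lymph nodes through high endothelial venules, specialised vessels that display ligands for the homing receptor L-selectin.

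The deposited values were ratios, and in 87.37% of probe sets the median of the RonTK+/+ arrays was 1 within 1e-04. The lowest value in the table was 0.01. Differences below are log2 of the 7-week ratio over the 6-week ratio, and each ± value beside a difference is the standard error of a limma fit to all 18 arrays. The ratios are relative, and signal over background is unknown, so they do not show whether a tissue was present and the labelled tissue could not be checked on this scale. Only differences between arrays can be read. Adipoq, the adipocyte hormone adiponectin, had ratios of 1.04, 0.978 and 0.969 at 6 weeks and 1.08, 1.05 and 1.04 at 7 weeks. Krt18, a luminal keratin, had 0.878, 0.770 and 1.19 at 6 weeks and 1.58, 1.25 and 1.36 at 7 weeks. Of 45 defining markers of 11 cell types, 38 were measured.

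Mst1r, the targeted gene, gave no loss of signal that could check the labels. Its single probe set read 1.56, 1.41 and 1.32 at 6 weeks and 1.23, 2.10 and 1.30 at 7 weeks, so the ages overlapped (difference 0.07 ± 0.23, limma adjusted p = 0.875). Its position relative to the deletion is not stated in the labels, so it checks nothing. Mst1, the ligand gene, read 0.898, 0.953 and 0.898 at 6 weeks and 0.820, 0.960 and 0.819 at 7 weeks, which also overlapped (difference -0.08 ± 0.09, adjusted p = 0.563).

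The tissue content of the arrays differed between the ages. Averaged over 67 skeletal muscle genes, the log2 ratio was -2.51, -3.55 and -3.50 on the 3 arrays of 6 weeks and 0.78, 0.18 and 0.17 on those of 7 weeks. The mean of 19 B lymphocyte genes was 0.22, 0.50 and 0.38 at 6 weeks and between -2.05 and -1.88 at 7 weeks, and that of 22 T lymphocyte genes ranged from 0.40 to 0.58 at 6 weeks and from -2.26 to -2.18 at 7 weeks. The 6-week glands were thus low in muscle transcripts and held lymphocyte transcripts, the 7-week glands the reverse, with no overlap in either measure. Since every array of an age shared this muscle and lymphocyte pattern, age and that tissue content cannot be told apart among these 6 arrays. In bulk RNA, fewer cells of a type and less RNA per cell cannot be told apart either.

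**Figure D1:**
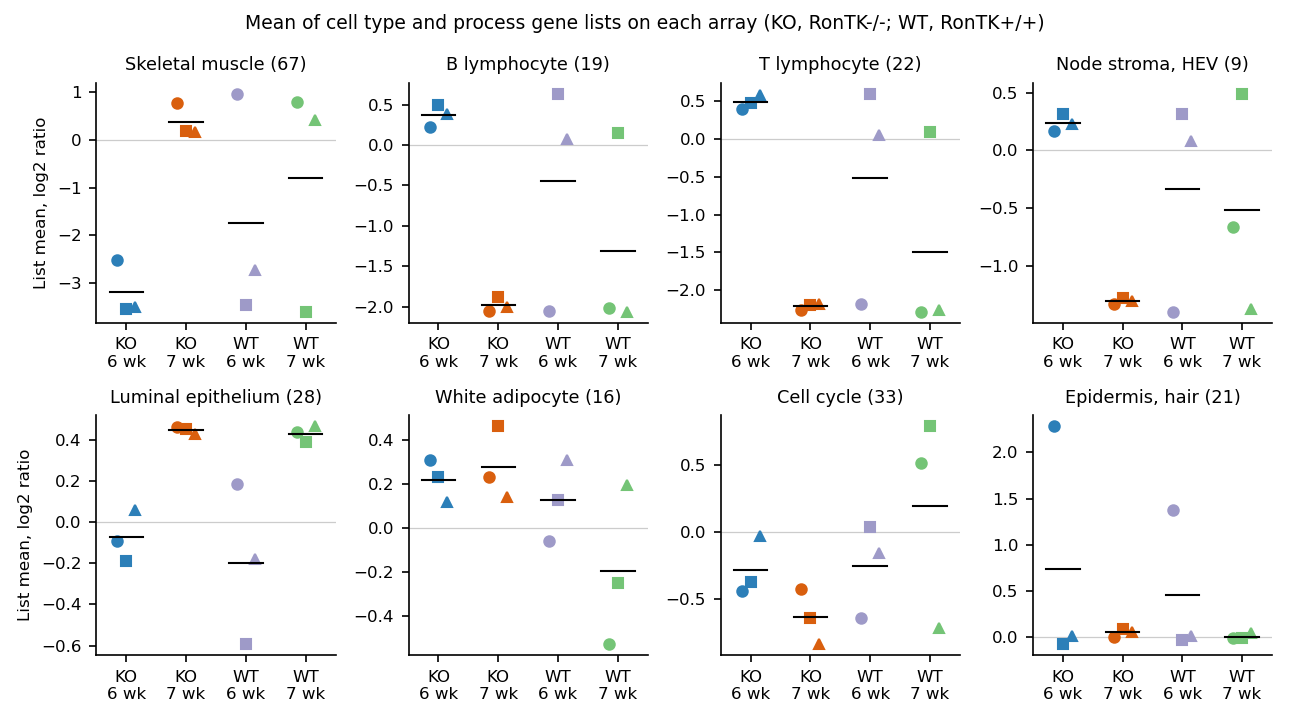
Mean log2 ratio of 8 gene lists on each array (vertical axis), with points shaped by replicate number (circle 1, square 2, triangle 3) and a bar at the mean of 3 arrays, for RonTK-/- (KO) and RonTK+/+ (WT) glands at 6 and 7 weeks. The number of measured genes stands in brackets. Muscle and lymphocyte means do not overlap between 6 and 7 weeks in RonTK-/- glands, while each RonTK+/+ group holds arrays of both kinds.

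In the fit of all 18 arrays no gene passed an adjusted p under 0.05 in either direction, 0% of 18193 genes higher and 0% lower, while 4118 had an unadjusted p under 0.05, 2439 of them higher at 7 weeks. The smallest adjusted p was 0.0636. That fit takes each gene's spread from all groups, and muscle and lymphocyte content varied within the other groups, with a muscle mean from -3.62 to 0.97 over the other 12 arrays. A limma fit of the 6 arrays alone, which takes the spread only from them, called 1616 genes higher at 7 weeks (8.88%) and 1394 lower (7.66%). All 3 arrays of 7 weeks lay above all 3 of 6 weeks for 3931 genes (21.6%) and below for 3031 (16.7%). Below, rose and fell are said only of genes that passed the fit of the 6 arrays, and none of these passed the fit of all 18. The counts in the 6 arrays were 904 higher and 870 lower without the second array of 6 weeks, and 1032 and 926 without the third. The first array of 6 weeks also carried epidermal transcripts, with ratios of 15.8 for Krt1 and 20.3 for Krt10 against 0.912 to 1.35 on the other 5, and without it 1420 genes were called higher and 1133 lower.

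Genes of the skeletal muscle lists made up 13 of the 15 largest rises, a count of list membership only. Actn3, the alpha-actinin of fast muscle fibres, read 0.0272, 0.01 and 0.0153 at 6 weeks and 1.36, 1.34 and 1.23 at 7 weeks. The 7-week ratios all lay above 1 and the 6-week ratios near the lowest value of the table (difference 6.34 ± 2.25, adjusted p = 0.162 in all arrays and 3.24e-05 in the 6 arrays). Myh4, the myosin heavy chain of the fastest fibres, read 0.0312, 0.01 and 0.0157 at 6 weeks and 1.36, 0.881 and 1.16 at 7 weeks. Its difference was 6.04 ± 2.44 (adjusted p = 9.38e-05 in the 6 arrays), a mean ratio of 0.0190 ± 0.0110 against 1.13 ± 0.241 (SD, n = 3). The other 13 were Ckmt2, Mybpc2, Asb5, Smpx, Tnnt3, Atp2a1, Pgam2, Neb, Myot, Pvalb, Myh2, Pygm and Mylk4. Among them Atp2a1 encodes the calcium pump of fast fibres, Pvalb the calcium buffer parvalbumin, Neb the thin filament ruler nebulin and Pygm muscle glycogen phosphorylase. The 15 differed by 51.0- to 81.2-fold, and where an array read 0.01 the fold is limited by that lowest value.

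The contractile genes were listed by structure, and their counts stand beside 8.88% of all genes that rose and 7.66% that fell. Of 14 thick filament genes 11 rose and 0 fell (median 4.56), and of 18 thin filament and Z disc genes 15 rose and 0 fell (median 4.50), beside a median of 0.03 over all genes. Tnni2, the inhibitory troponin of fast fibres, differed by 4.08 ± 1.58 (adjusted p = 4.01e-04 in the 6 arrays). All 17 genes of calcium handling and excitation rose (median 1.93), among them Casq1, the calcium store protein calsequestrin (5.35 ± 2.04), and Cacna1s, the voltage sensor of excitation (4.49 ± 1.65). Of 18 genes of muscle energy supply 17 rose (median 2.75), including Ckm, muscle creatine kinase, with ratios of 0.0844, 0.0390 and 0.0538 at 6 weeks and 1.38, 1.43 and 1.17 at 7 weeks.

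Regulators of muscle formation were a separate list. Of 16 regulators and satellite cell genes 8 rose and 0 fell (median 0.36), beside 8.88% and 7.66% of all genes. Myf6, a regulator of mature fibres, differed by 4.64 ± 1.75 (adjusted p = 3.36e-05 in the 6 arrays) and Myog, the differentiation factor myogenin, by 1.72 ± 0.71 (adjusted p = 9.10e-05). Pax7, the satellite cell factor, named after its values were seen, rose by 0.38 ± 0.20 (adjusted p = 0.0190 in the 6 arrays), with 0.827, 0.850 and 0.791 at 6 weeks and 1.04, 1.18 and 1.00 at 7 weeks. The levels of different genes cannot be compared on this scale, only their differences.

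The promoters of these genes were searched for motifs known from muscle genes. RefSeq promoters of GRCm38.p6, from 250 bases before the start to 50 after it, were found for 11 of the 15 genes with the largest rises. The E-box CANNTG, the core site of MyoD and myogenin, lay on either strand in 8 of the 11 (72.7%), against 72.1% of 27025 promoters. The TATA box TATAAA lay in 3 (27.3%, against 14.2%), the MEF2 site in 4 (36.4%, against 3.26%) and the CArG box of serum response factor in 2 (18.2%, against 1.57%). Of the 10 promoters found for the 15 largest falls, all held the E-box and 0 held any of the other motifs. The promoters that held both an E-box and a MEF2 site are shown as examples of where these letters lie. They are Myh4 (chr11:67237562-67237861, plus strand), Pgam2, muscle phosphoglycerate mutase (chr11:5803747-5804046, minus strand), and Mylk4, a myosin light chain kinase (chr13:32783915-32784214, minus strand). Capitals mark every match to the 4 motifs, and a match of TATAAA overlaps the MEF2 site of Myh4. A match is a description of the letters and not a measured binding site.
Myh4: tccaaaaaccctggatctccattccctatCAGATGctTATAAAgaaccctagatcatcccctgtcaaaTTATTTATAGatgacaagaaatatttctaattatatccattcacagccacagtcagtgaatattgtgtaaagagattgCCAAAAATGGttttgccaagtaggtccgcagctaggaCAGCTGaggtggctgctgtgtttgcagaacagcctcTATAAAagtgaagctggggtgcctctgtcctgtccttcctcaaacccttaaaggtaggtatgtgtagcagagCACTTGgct
Pgam2: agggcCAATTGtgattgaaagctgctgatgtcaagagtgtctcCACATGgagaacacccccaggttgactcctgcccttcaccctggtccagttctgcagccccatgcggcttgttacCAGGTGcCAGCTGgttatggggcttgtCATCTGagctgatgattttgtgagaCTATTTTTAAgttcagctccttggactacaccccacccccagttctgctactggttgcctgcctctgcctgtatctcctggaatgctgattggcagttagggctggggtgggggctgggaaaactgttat
Mylk4: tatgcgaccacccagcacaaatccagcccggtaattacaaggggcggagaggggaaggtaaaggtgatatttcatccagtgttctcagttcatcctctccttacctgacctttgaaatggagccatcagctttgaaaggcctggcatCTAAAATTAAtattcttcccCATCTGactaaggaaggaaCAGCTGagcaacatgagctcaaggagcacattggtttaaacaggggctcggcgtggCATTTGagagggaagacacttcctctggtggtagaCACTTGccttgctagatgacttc

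Genes of the lymphocyte, plasma cell, NK, dendritic cell and lymph node lists made up 10 of the 15 largest falls. This counts list membership only, and a gene outside these lists can still be a lymphocyte gene. Glycam1, a ligand of L-selectin on high endothelial venules and also a milk protein gene, read 1.22, 1.39 and 1.29 at 6 weeks and 0.01 on all 3 arrays of 7 weeks. It was at least 129.6-fold lower at 7 weeks (difference -7.02 ± 2.26, adjusted p = 0.152 in all arrays and 5.53e-08 in the 6 arrays). Cd3g, a chain of the T cell receptor complex, read 1.47, 1.57 and 1.66 at 6 weeks and 0.0457, 0.0623 and 0.0782 at 7 weeks (difference -4.69 ± 1.76, adjusted p = 1.08e-05 in the 6 arrays). Ms4a1, the B cell antigen CD20, read 1.19, 1.56 and 1.44 at 6 weeks and 0.0642, 0.0637 and 0.0545 at 7 weeks (difference -4.52 ± 1.68, adjusted p = 2.77e-06). The 3 genes kept all arrays of the ages apart. The others were Ighv14-2, an immunoglobulin heavy chain segment, Pou2af1, a B cell coactivator, Cd8b1, Cd3d, Il7r, Fcmr, Cd69, Cd5, Gpr174, H2-Ob, P2ry10 and Sh2d1a, and the 15 differed by 14.9- to 129.6-fold.

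**Figure D2:**
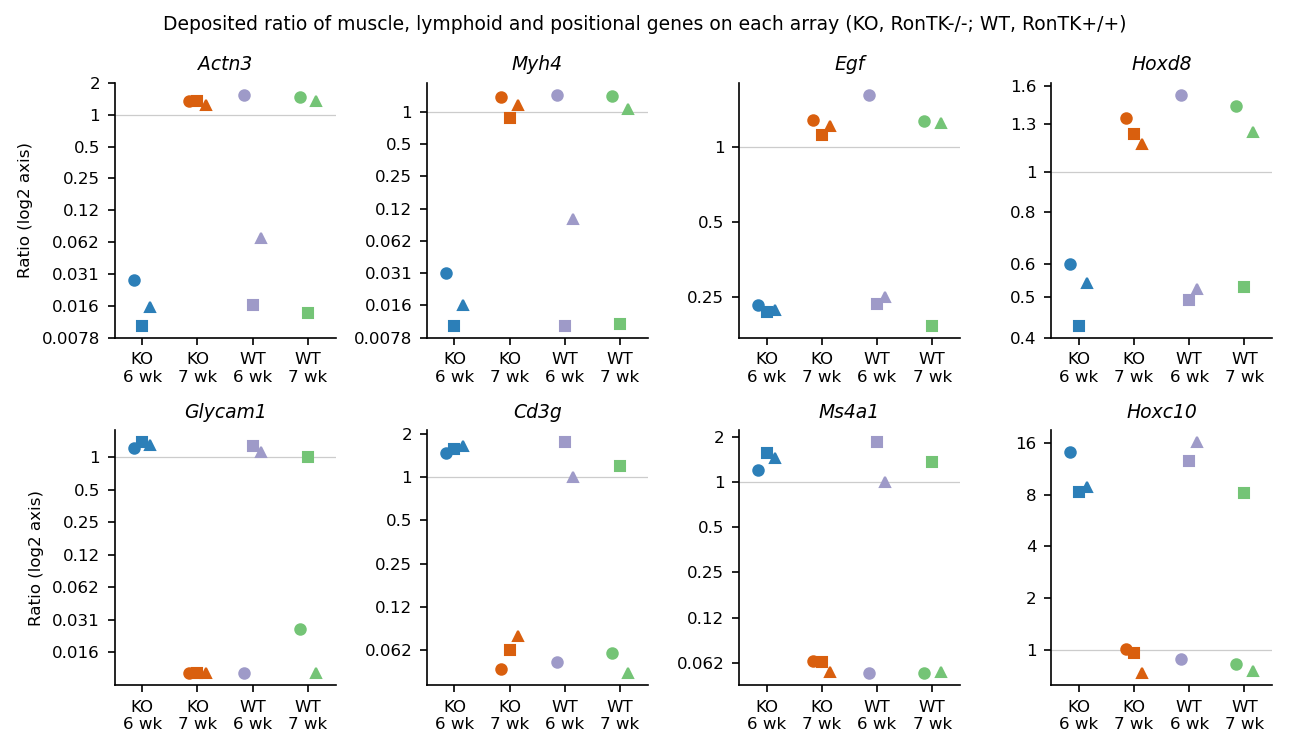
Deposited ratio of 8 genes on each array (log2 axis, with a line at 1), with points shaped by replicate number (circle 1, square 2, triangle 3), for RonTK-/- (KO) and RonTK+/+ (WT) glands at 6 and 7 weeks. Actn3, Myh4, Egf and Hoxd8 are low on every RonTK-/- array of 6 weeks and Glycam1, Cd3g, Ms4a1 and Hoxc10 are high there, and the RonTK+/+ arrays of each age fall on both sides.

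The counts that follow stand beside 7.66% of all genes that fell and 8.88% that rose. Of 22 T lymphocyte genes 21 fell and 0 rose (median -3.11). Cd28, the costimulatory receptor, differed by -3.79 ± 1.25, Cd8a by -2.13 and Cd6 by -1.96. Of 19 B lymphocyte genes 17 fell (median -2.08), Cr2, the complement receptor of B cells and follicular dendritic cells, from 1.31, 1.80 and 1.65 to 0.132, 0.137 and 0.126. Cxcr5, the receptor that brings B cells to follicles, fell by 2.08 (SE 0.62), and Cxcl13, its ligand, fell by 3.34 (SE 1.08, adjusted p = 5.17e-05 in the 6 arrays). Of 13 NK and cytotoxic genes 8 fell (median -0.86), with Ccl5, a chemokine of cytotoxic cells, at -3.51. Of 8 plasma cell genes 1 fell (median -0.00), beside 7.66% of all genes. Of 17 dendritic cell and antigen presentation genes 13 fell (median -0.71), among them Siglech of plasmacytoid dendritic cells (-1.14 ± 0.34) and Irf8, a transcription factor of the lineage (-1.59 ± 0.64).

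Genes of the lymph node's own tissue fell as well. Of 9 stromal and high endothelial genes 7 fell (median -0.79), beside 7.66% of all genes. Chst4, which sulphates L-selectin ligands, read 1.24, 1.67 and 1.23 at 6 weeks and 0.827, 0.803 and 0.739 at 7 weeks (adjusted p = 0.00727 in the 6 arrays). Madcam1, a mucosal addressin, fell by 0.53 (SE 0.20, adjusted p = 0.0107). Of 7 lymphatic endothelial genes 3 fell and 1 rose, Stab2 by -1.28 ± 0.43, Prox1, the lymphatic master regulator, by -0.44 ± 0.16, and Mmrn1 by -0.43 ± 0.19, while Fgl2 differed by 0.44 ± 0.17. The 3 probe sets of Prox1 differed by -1.18 to 0.004 and the 2 of Mmrn1 by -0.87 and 0.003, so the probe sets disagreed. Of 19 macrophage genes 2 fell and 0 rose, beside 7.66% and 8.88% of all genes. Their median of -0.11 was -0.32 without the second array of 6 weeks and 0.05 without the third. Adgre1 and Cd68, macrophage markers, overlapped between the ages.

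Among chemokines and their receptors 14 of 33 fell and 2 rose, beside 7.66% and 8.88% of all genes, with a median of -0.13. Ccr9, a homing receptor of T cells, read 1.26, 1.49 and 1.51 at 6 weeks and 0.388, 0.407 and 0.415 at 7 weeks. Ccl11, eotaxin, rose by 0.54 ± 0.16 (adjusted p = 0.0382 in the 6 arrays).

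Hox genes, which are expressed by position along the body axis, also separated the ages. Hoxc10 read 14.2, 8.34 and 8.94 at 6 weeks and 1.00, 0.951 and 0.727 at 7 weeks, a mean of 10.5 ± 3.24 against 0.893 ± 0.147 (SD, n = 3). All 6-week ratios lay above all 7-week ratios (difference -3.53 ± 1.33, adjusted p = 0.170 in all arrays and 7.88e-05 in the 6 arrays). Hoxa9 read 1.71, 1.30 and 1.49 against 0.791, 0.781 and 0.746 (difference -0.95 ± 0.21). Hoxa10 (-0.93 ± 0.26) and Hoxc9 (-0.63 ± 0.19) fell too. In the other direction Hoxd8 differed by 1.26 ± 0.53, with 0.601, 0.426 and 0.542 at 6 weeks and 1.34, 1.23 and 1.17 at 7 weeks. Hoxc4 (0.86 ± 0.34), Hoxa5 (0.67 ± 0.29), Hoxc5 (0.57 ± 0.22) and the T-box gene Tbx15 (1.51 ± 0.66) rose as well. Hoxc10 and the genes that rose, and Hoxd9 below, were named after their values were seen.

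Grouped by paralogue number, a division also made after the values were seen, the genes with numbers 1 to 8 and those with 9 and 10 differed in direction. Of 18 genes with numbers 1 to 8, 4 rose and 0 fell in the 6 arrays, and 8 lay wholly above at 7 weeks. Of 7 genes with numbers 9 and 10, 4 fell and 0 rose, and 6 lay wholly below. Hoxd9 was the exception, at 0.59 ± 0.28 (adjusted p = 0.0545 in the 6 arrays). Over all genes 8.88% rose and 7.66% fell in the 6 arrays, while 21.6% lay wholly above and 16.7% wholly below at 7 weeks. Higher numbers are expressed further towards the tail as a rule.

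**Figure D3:**
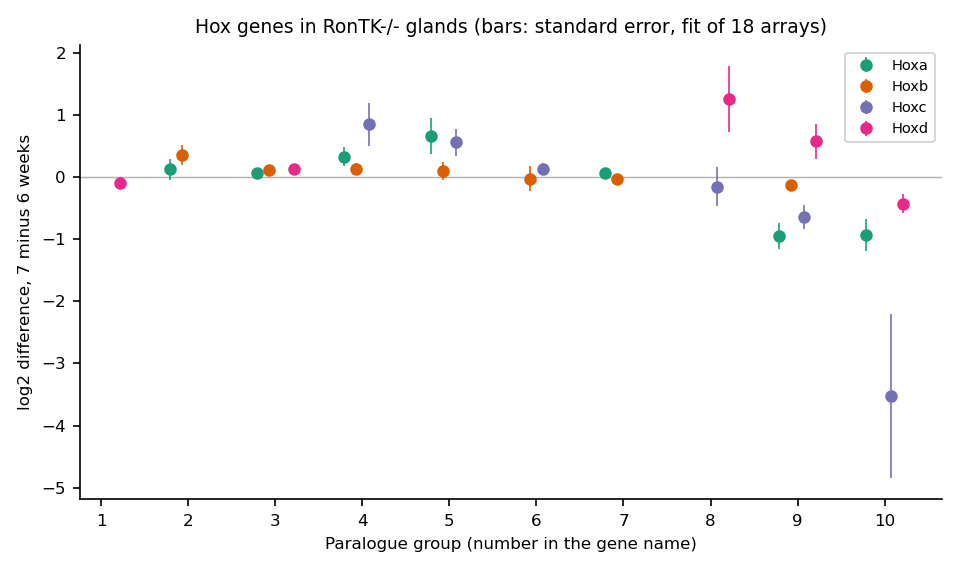
Difference of 25 Hox genes between 7 and 6 weeks in RonTK-/- glands (vertical axis, log2) against the paralogue number in the gene name (horizontal axis), coloured by cluster, with standard errors of the fit of 18 arrays. Hoxc10 stands lowest at -3.53 and Hoxd8 highest at 1.26.

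The same levels were set beside the muscle content of all 18 arrays. On the 8 arrays with a muscle mean under -2, in both genotypes and at all 3 ages, Hoxc10 ran from 8.20 to 16.3 and Hoxd8 from 0.419 to 0.601. On the 10 arrays with a muscle mean above 0, Hoxc10 ran from 0.727 to 1.00 and Hoxd8 from 1.00 to 1.56. RonTK+/+ glands of 7 weeks showed it within an age, with Hoxc10 at 0.827, 8.20 and 0.751, Myh4 at 1.40, 0.0106 and 1.06 and Cd3g at 0.0598, 1.20 and 0.0429 on arrays 1, 2 and 3. Lymphocyte genes did not keep this split on all 18 arrays. The B lymphocyte mean ran from 0.07 to 0.82 on the 8 arrays and from -2.06 to 0.09 on the 10. The first 5-week arrays of RonTK+/+ and RonTK-/- were among the 10, with Cd3g at 1.29 and 0.674. Which gland or glands the RNA of each array came from is not stated, and the part of gland position in the results was not tested.

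Epithelial genes were higher at 7 weeks. Of 28 luminal genes 17 rose and 0 fell (median 0.51), beside 8.88% and 7.66% of all genes. Cldn3, a tight junction claudin, read 0.892, 0.829 and 0.878 at 6 weeks and 1.47, 1.51 and 1.41 at 7 weeks (difference 0.76 ± 0.20, adjusted p = 3.14e-04 in the 6 arrays). Muc1, an apical mucin, read 0.992, 1.14 and 1.10 at 6 weeks and 1.71, 2.62 and 1.84 at 7 weeks, without overlap (difference 0.91 ± 0.18, adjusted p = 0.0749 in all arrays and 0.01 in the 6 arrays). Elf3, an epithelial transcription factor (0.40 ± 0.10), and Rab25, an epithelial trafficking GTPase (0.49 ± 0.17), rose too. Of 19 basal and myoepithelial genes 5 rose and 0 fell (median 0.31, 0.17 without the second array of 6 weeks and 0.20 without the third of 7 weeks), but the keratins Krt5 and Krt14 overlapped between the ages, with their highest ratios, 1.98 and 2.11, on the epidermis-rich first array of 6 weeks.

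Milk genes were mostly higher at 7 weeks. Of 20 genes of milk proteins and secretion 10 rose and 1, Glycam1, fell (median 0.86), beside 8.88% and 7.66% of all genes. Lalba, encoding alpha-lactalbumin and named after its values were seen, read 1.70, 2.93 and 1.66 at 6 weeks and 5.28, 7.68 and 5.21 at 7 weeks (difference 1.56 ± 0.65, adjusted p = 0.00697 in the 6 arrays). Slc34a2, a phosphate transporter of secretory epithelium, differed by 0.82 ± 0.32 (adjusted p = 0.00582). Csn2, beta-casein, named for comparison, read 0.135, 1.47 and 0.840 at 6 weeks and 1.90, 1.84 and 2.48 at 7 weeks, and its difference of 1.90 ± 1.51 passed neither fit (adjusted p = 0.164 in the 6 arrays). Fabp3, in the milk and muscle lists both, read 0.724, 0.246 and 0.296 at 6 weeks and 1.44, 1.13 and 1.30 at 7 weeks.

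**Figure D4:**
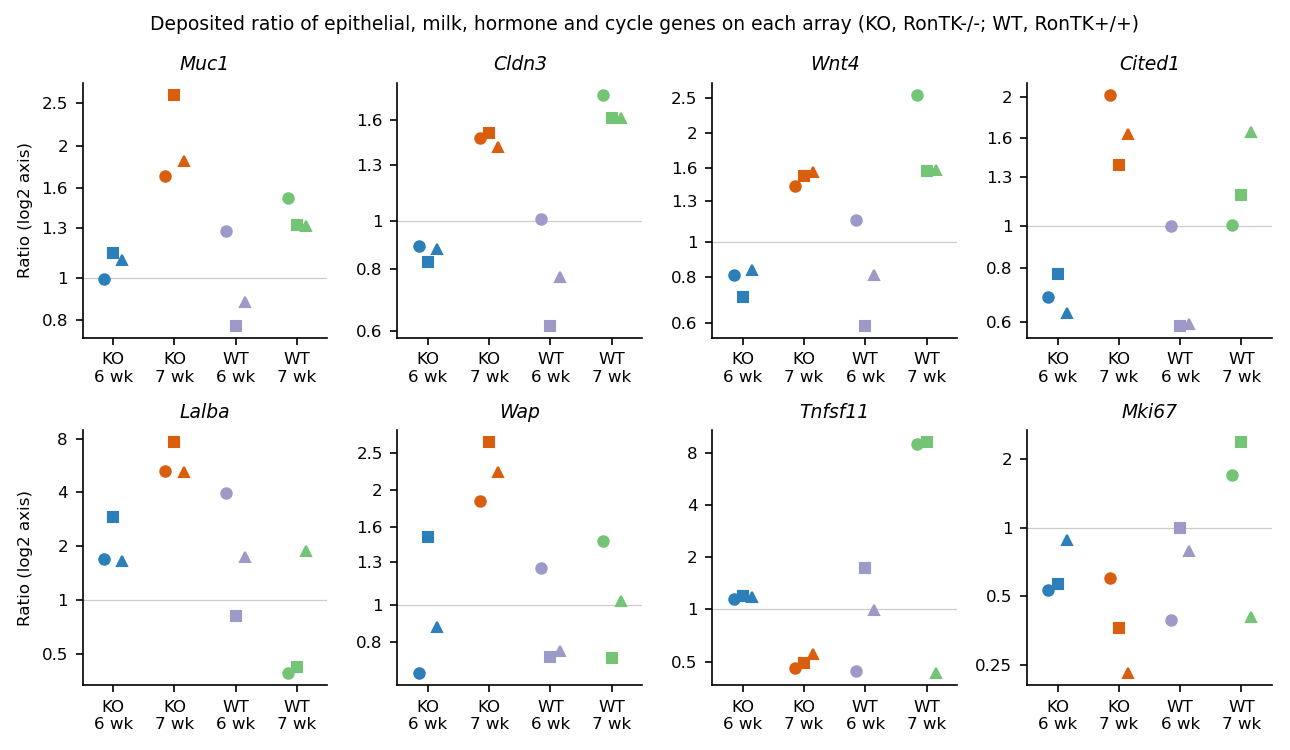
Deposited ratio of 8 epithelial, milk, hormone and cell cycle genes on each array (log2 axis, with a line at 1), with points shaped by replicate number (circle 1, square 2, triangle 3), for RonTK-/- (KO) and RonTK+/+ (WT) glands at 6 and 7 weeks. Muc1, Cldn3, Wnt4, Cited1 and Lalba are higher on every 7-week than on every 6-week array in RonTK-/- glands, while Tnfsf11 is lower there and reaches 8.97 and 9.27 on a pair of RonTK+/+ arrays of 7 weeks.

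Among 26 genes of ovarian steroid and growth hormone signals 3 rose and 2 fell, shares near the 8.88% and 7.66% of all genes. Wnt4, a progesterone target in the duct, read 0.813, 0.705 and 0.841 at 6 weeks and 1.43, 1.52 and 1.56 at 7 weeks (difference 0.94 ± 0.31, adjusted p = 4.75e-04 in the 6 arrays). Cited1, a coactivator of the oestrogen receptor, read 0.683, 0.773 and 0.628 against 2.02, 1.39 and 1.63 (difference 1.26 ± 0.28, adjusted p = 0.00153). Both were higher on all 3 arrays of 7 weeks. Fgf10, a stromal growth factor for ducts, fell by 0.83 (SE 0.28, adjusted p = 0.00842), and its receptor Fgfr2 rose by 0.64 ± 0.26. Tnfsf11, encoding RANK ligand, is a progesterone target and also a lymph node gene, and it was named after its values were seen. It fell from 1.15, 1.19 and 1.18 to 0.458, 0.492 and 0.556 (difference -1.23 ± 0.91, adjusted p = 1.15e-04 in the 6 arrays). The hormone receptor genes were named for comparison. Pgr overlapped between the ages, with 1.45, 1.13 and 2.31 against 1.37, 1.66 and 2.10, and so did Esr1 (difference 0.31 ± 0.16, adjusted p = 0.217 in the 6 arrays).

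Growth factor genes moved in part. Of 13 EGF family genes 4 rose and 1 fell, beside 8.88% and 7.66% of all genes. Egf read 0.232, 0.218 and 0.220 at 6 weeks and 1.28, 1.12 and 1.22 at 7 weeks (difference 2.43 ± 0.99, adjusted p = 4.80e-06 in the 6 arrays). Over all 18 arrays Egf ran from 0.187 to 0.288 on the 8 arrays with a muscle mean under -2 and from 1.00 to 1.89 on the other 10. Erbb2 (0.52 ± 0.15) and Erbb3 (0.51 ± 0.19), receptors that pair with the EGF receptor, rose, and the ligand gene Nrg4 fell by 0.85 (SE 0.28).

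Of 20 genes around Ron and the related receptor Met 3 rose and 1 fell, beside 8.88% and 7.66% of all genes (median 0.18, and 0.11 without the second array of 7 weeks). St14, the protease matriptase that can activate macrophage-stimulating protein, read 0.890, 0.920 and 0.920 at 6 weeks and 1.37, 1.72 and 1.57 at 7 weeks (difference 0.77 ± 0.27, adjusted p = 0.00169 in the 6 arrays). Its inhibitor Spint1 rose by 0.39 ± 0.12 and the semaphorin receptor gene Plxnb1 by 0.38 ± 0.18, while Cblb, a ubiquitin ligase also abundant in T cells, fell by 0.66 (SE 0.25). Src (0.30 ± 0.07, adjusted p = 0.0504 in the 6 arrays) and the adaptor gene Grb2 (-0.23 ± 0.08, adjusted p = 0.0750) did not pass. Met (0.31 ± 0.16) and its ligand gene Hgf (-0.08 ± 0.14) overlapped between the ages. St14, Plxnb1, Cblb, Met and Hgf were named after their values were seen.

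Signalling lists held both directions, and their counts stand beside 8.88% of all genes that rose and 7.66% that fell. Of 30 Wnt pathway genes 8 rose and 1 fell, the rises including the coreceptor gene Lrp5 (0.44 ± 0.11) and the stromal ligand gene Wnt2 (1.04 ± 0.35). Of 24 TGF-beta and BMP genes 6 rose and 3 fell. Smad6, an inhibitor of BMP signalling, read 1.13, 0.872 and 0.895 at 6 weeks and 1.77, 2.13 and 1.58 at 7 weeks (difference 0.92 ± 0.15, adjusted p = 0.0636 in all arrays and 0.00579 in the 6 arrays). Grem1, a BMP antagonist, fell from 1.49, 1.82 and 1.23 to 0.347, 0.345 and 0.445. Of 16 Notch genes 3 rose and 1 fell, Hey1, a Notch target, by 0.72 ± 0.28.

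Some proliferation genes were lower at 7 weeks. Of 33 cell cycle genes 6 fell and 0 rose, beside 7.66% and 8.88% of all genes. The list median was -0.34, and -0.20 without the third array of 6 weeks. Mcm5, a replication helicase subunit, fell from 0.894, 0.925 and 1.05 to 0.555, 0.579 and 0.591 (adjusted p = 0.00114 in the 6 arrays). Mcm4 (-0.63 ± 0.36), Pcna, the polymerase clamp (-0.47 ± 0.27), and Ccne1, a G1 cyclin (-0.31 ± 0.13), fell as well. Mki67, a marker of dividing cells named for comparison, read 0.531, 0.565 and 0.884 against 0.602, 0.362 and 0.229 and overlapped (adjusted p = 0.184 in the 6 arrays). The list mean ranged from -0.44 to -0.03 at 6 weeks and from -0.84 to -0.42 at 7 weeks, so the ages overlapped. Lymphocyte means were also lower at 7 weeks, and their part in these genes was not tested beyond the fit with covariates below. The list median was -0.15 after quantile normalization.

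Interferon response genes varied among the 6-week arrays. Of 25 genes 4 fell and 0 rose, beside 7.66% and 8.88% of all genes. The list median was -0.42, -0.19 without the third array of 6 weeks and -0.64 without the first. Mx1, an antiviral GTPase, read 1.11, 2.14 and 4.67 at 6 weeks and 0.561, 0.654 and 0.583 at 7 weeks (difference -1.90 ± 0.49, adjusted p = 0.0342 in the 6 arrays). Cxcl10, an interferon-induced chemokine, read 1.03, 3.44 and 3.01 against 0.697, 0.644 and 0.712. The list mean was -0.22, 0.21 and 1.04 at 6 weeks and between -0.36 and -0.11 at 7 weeks, so the first array of 6 weeks lay within the 7-week range.

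In the remaining lists the counts stand beside 8.88% of all genes called higher and 7.66% called lower. Of 16 white adipocyte genes 1 rose, Agt, angiotensinogen (1.36 ± 0.50), and the median was -0.03, which went from -0.08 to 0.06 when an array was left out. Of 13 brown adipocyte genes 4 rose (median 1.30, and 0.76 without the third array of 6 weeks). The list mean was 0.14, -0.79 and -1.15 at 6 weeks and between 0.32 and 0.55 at 7 weeks. The 4 included Ppargc1a, the coactivator of mitochondrial genes (1.86 ± 0.65), and Cox7a1 (1.82 ± 0.90), both also active in muscle, the second named after its values were seen. Ucp1, the defining thermogenic gene and named for comparison, read 1.40, 0.535 and 0.295 at 6 weeks and 1.50, 1.66 and 1.57 at 7 weeks and did not pass (adjusted p = 0.115 in the 6 arrays). Of 18 blood endothelial genes 2 rose, Emcn (0.41 ± 0.14) and Vwf (0.66 ± 0.23), and Tie1 (0.56 ± 0.17) did not pass. The defining endothelial markers were named for comparison. Pecam1 (-0.13) and Kdr (0.04) overlapped between the ages, and Cdh5 (0.25) did not pass (adjusted p = 0.0581 in the 6 arrays). Of 18 fibroblast genes 0 passed in the 6 arrays, as did 0 of 21 epidermal genes and 0 of 15 ribosomal protein genes. In the matrix protease list 2 of 16 rose, Mmp3, stromelysin, from 0.939, 0.874 and 0.994 to 3.24, 2.05 and 2.03, and Plat (0.49 ± 0.11). Immediate early genes split, with 4 of 26 higher, such as Atf3 (1.13 ± 0.32) and Nr4a3 (0.52 ± 0.16), and 4 lower. Among 17 clock genes Npas2 (0.46 ± 0.10), Nr1d1 (0.62 ± 0.27) and Nfil3 (0.78 ± 0.34) rose and Cry1 fell by 0.59 (SE 0.16), and the hour of collection is not given in the labels.

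Tissue content was then entered in the fit of all 18 arrays as covariates, the muscle list mean and the B lymphocyte list mean. No gene passed (0% of 18193, smallest adjusted p = 0.0505), and 1199 had an unadjusted p under 0.05, 792 higher and 407 lower. Of the 1616 genes called higher in the 6 arrays, 256 kept their sign with an unadjusted p under 0.05 in this fit, as did 74 of the 1394 called lower. Among these called genes, 343 and 350 differed 2-fold or more without the covariates. With the covariates 9 and 2 of the called genes did so in the same direction. List medians moved near 0 for muscle (0.05 over the 67 genes), B lymphocyte (0.01) and T lymphocyte genes (-0.08), which for the first and second follows from the covariates themselves. They were 0.05 for luminal, -0.19 for milk, -0.12 for cell cycle and -0.33 for interferon genes, and 0.28 for blood endothelium. The medians of NK and cytotoxic genes (-0.86 to 0.18) and of dendritic cell genes (-0.71 to 0.18) changed sign. Of the 17 dendritic cell genes, 7 were higher and 0 lower at an unadjusted p under 0.05 in this fit.

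**Figure D5:**
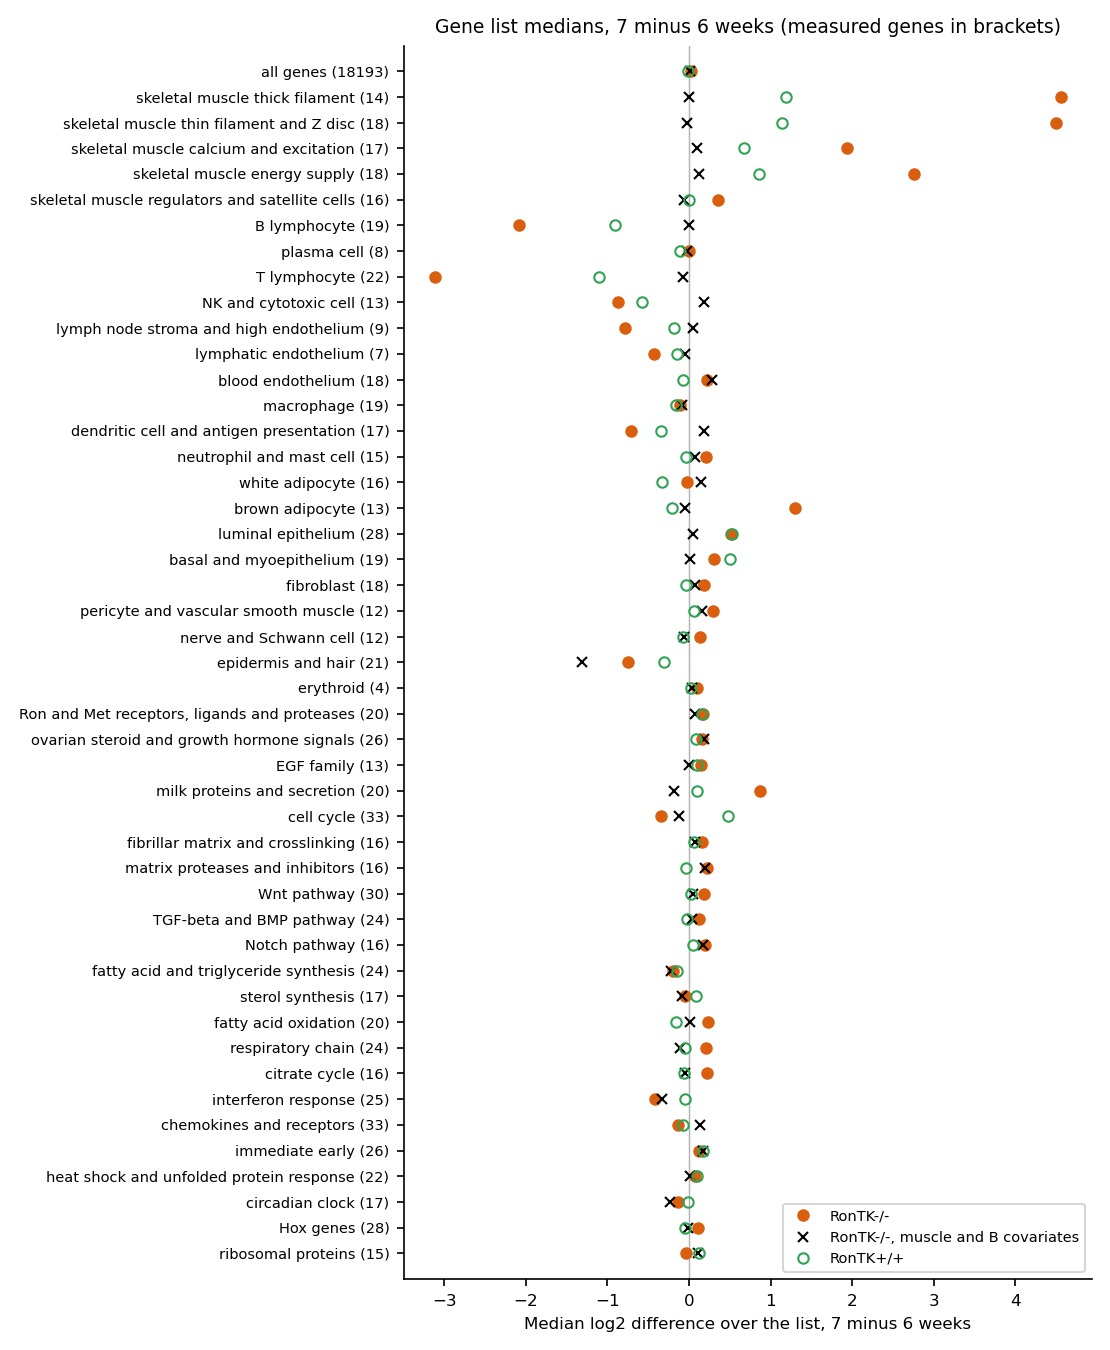
Median log2 difference between 7 and 6 weeks for each gene list (horizontal axis), in RonTK-/- glands (filled circles), in RonTK-/- glands with muscle and B lymphocyte means as covariates (crosses) and in RonTK+/+ glands (open circles). The number of measured genes stands in brackets. In RonTK-/- glands the thick and thin filament lists stand near 4.50, the other muscle lists between 0.36 and 2.75, and T lymphocyte genes at -3.11. With the covariates these lists lie near 0.

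Genes outside the muscle and lymphoid lists with the smallest p in that fit were 5 in each direction, and none passed. Bcar3, an adaptor of Src family signalling, differed by 0.62 ± 0.08 with the covariates (adjusted p = 0.0505) but by 0.14 ± 0.19 without them, with overlapping ratios of 1.07, 1.23 and 1.16 against 1.21, 1.30 and 1.29. Its 2 probe sets disagreed in direction without the covariates, at -0.10 and 0.38. Zfp449, a zinc finger gene, differed by 0.50 ± 0.08 with the covariates and 0.71 ± 0.10 without, with 0.868, 0.787 and 0.829 at 6 weeks and 1.40, 1.41 and 1.27 at 7 weeks. Cldn5, the claudin of endothelial junctions, differed by 0.91 ± 0.17 with the covariates and 0.38 ± 0.23 without, and Esyt1 and Elobl completed the higher genes. On the lower side Ep300, the histone acetyltransferase p300, differed by -0.43 with the covariates and -0.56 ± 0.10 without, with 1.23, 1.25 and 1.33 at 6 weeks and 0.797, 0.916 and 0.882 at 7 weeks. Tent5a differed by -0.70 with the covariates and -0.63 ± 0.21 without. Sgcb, a sarcoglycan, and Slc47a1, a cation transporter, reversed, from 0.90 to -0.46 and from 2.16 to -0.63, and Fgf13 went from 0.14 to -0.45. Among the genes named above, the difference with the covariates was 0.90 for Smad6, 0.67 for Muc1 (unadjusted p = 0.00548), 0.73 for Cited1 (unadjusted p = 0.0142) and 0.30 for Wnt4 (unadjusted p = 0.170).

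In RonTK+/+ glands the same interval gave 2 called genes of 18193 (0.011%) in the fit of all arrays and 0 in a fit of those 6 arrays, where 1029 genes had an unadjusted p under 0.05. The 2, named after their values were seen, were Zfp692, a zinc finger gene (0.46, adjusted p = 0.0245), and Sik1, a salt-inducible kinase (0.61, adjusted p = 0.0483). In RonTK-/- glands they differed by 0.25 ± 0.06 and 0.33 ± 0.09. The luminal median was 0.53 in RonTK+/+ glands, and Wnt4 read 1.15, 0.588 and 0.815 at 6 weeks and 2.55, 1.57 and 1.58 at 7 weeks. The cell cycle median was 0.47, with 32 of 33 genes above 0, and the list mean at 7 weeks was 0.51, 0.79 and -0.72 on the 3 arrays.

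The test of the difference between genotypes, the interaction of genotype and age over all 18 arrays, called no gene (0%, smallest adjusted p = 0.624), and 1418 had an unadjusted p under 0.05. Of genes more positive in RonTK-/- glands the smallest p belonged to Smad6 (1.06 ± 0.21), Zfp449 (0.66), Bhlha9, Sgsm2 and Lipa, lysosomal acid lipase (0.63 ± 0.14). Of those more negative it belonged to Gprasp2 (-0.87 ± 0.18), Mis12, a kinetochore gene (-0.73 ± 0.16), Dnaja1, Coro2a (-1.01 ± 0.24) and Ahsa1. Lalba, at 2.95, and Tnfsf11, at -3.07, had larger interactions with unadjusted p = 0.00661 and 0.0317. With the covariates 1 gene passed, Bcar3 (adjusted p = 0.0307).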

How the data were processed

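RNA of 18 mammary gland samples was measured on Affymetrix mouse genome arrays, after 1 round of amplification and biotin labelling, per the labels' protocols. The deposited values are linear ratios, found from the values, and how the authors summarised and scaled them no label records. Of 45101 probe sets, 34945 had 1 gene symbol, 932 several and 9160 none, beside 64 controls. A gene's value is the mean log2 ratio of its probe sets with 1 symbol (18193 genes), with no filter on low signal, since signal over background is unknown. Probe sets of a gene could disagree, with differences from -3.50 to -0.09 for Cd8a and from 0.08 to 3.47 for Fabp3.

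Groups came from the labels. limma 3.58.1 in R 4.3.3 fitted 6 group means to all 18 arrays, and the contrast of 7 minus 6 weeks in RonTK-/- was tested with its moderated t statistic, two-sided, with Benjamini-Hochberg adjustment over all genes and a threshold of 0.05. The same fit to the 6 arrays alone was an alternative. Alternatives also covered scaling, array weights, the replicate number, covariates, probe sets, a pseudocount of 0.1, thresholds and leaving out arrays, and those of the fit of the 6 arrays were chosen after seeing the data. A log2 scale of the ratio replaced the scale first planned where that assumed another unit. Replicate numbers were checked for pairing, by correlating deviations from group means (0.02, 0.05 and 0.13 for the same numbers), and were not taken to pair the samples.

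The comparison, the 46 gene lists and the tests were chosen with earlier results of these data known. The genes named were Mst1r and Mst1 and the 15 largest rises and falls among genes called in the fit of the 6 arrays. They also included the smallest p with covariates and for the interaction (5 each way), and up to 4 genes of smallest p from a list. Others are said to be named after their values were seen or for comparison. The code was tested on simulated data. Motifs were searched with pandas 2.3.3 in Python 3.11.15, and figures drawn with matplotlib 3.10.9.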

Additional observations from a re-analysis of the deposited data

Results flagged for a closer look

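Among genes the text names or lists, 4 had differences of opposite sign in the genotypes from 6 to 7 weeks with no overlap between ages in either genotype. The difference between the changes (RonTK-/- minus RonTK+/+) was tested by the interaction in limma and passed for none of them (adjusted p = 0.624 each). It was 0.39 for Hgfac, which encodes a protease that activates hepatocyte growth factor and was 0.24 in RonTK-/- and -0.15 in RonTK+/+ glands. It was 0.53 for Bhlha9, -0.64 for the chaperone gene Dnajb1 and -0.55 for the chaperone cofactor gene Ahsa1.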

How the results depend on the processing

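Each alternative was run on the counts of genes called from 6 to 7 weeks and on the differences of the named genes. In the fit of all arrays, the 0 higher and 0 lower genes in RonTK-/- glands became 1616 and 1394 with only the groups compared, 2456 and 1898 with array weights, and 2246 and 1810 with the leading residual component as a covariate. The interaction count of 0 became 3046, 0 and 801 under array weights, only the groups compared and the residual component, and 1 with both covariates. The array weights did not converge and gave 1 array a weight of 50.8. The count of 2 in RonTK+/+ glands became 0 after quantile normalization, 18 after centring, 9592 with array weights, 0 with only the groups compared, 51 with the muscle covariate, 35 with both covariates, 406 with the residual component, 14 with the pseudocount, 0 at an adjusted p under 0.01 and 0 at 2-fold. With the replicate block, 1 gene was higher and 0 lower in RonTK-/- glands and 0 were called in RonTK+/+ glands, and the fit of the 6 arrays with the replicate block called 1286 and 1092. Leaving out each array gave 0 to 4 genes higher and 0 to 1 lower in RonTK-/- glands, both highest without the third RonTK+/+ array of 7 weeks, with 2, 1 and 3 higher without replicate 1, 2 and 3 of RonTK+/+ at 6 weeks. It gave 0 to 231 interaction genes and 0 to 512 in RonTK+/+ glands, both highest without the third RonTK+/+ array of 7 weeks. In the fit of the 6 arrays, 904 to 1420 genes were higher and 870 to 1424 lower without an array, 741 and 731 at an adjusted p under 0.01, 343 and 350 at 2-fold, and 2405 probe sets were higher and 2304 lower when each was tested alone. Of 140 named genes called in the fit of the 6 arrays, 28 changed sign with the B lymphocyte covariate in the fit of all arrays, 9 with the muscle covariate and 24 with both. None of the 140 changed sign under the other alternatives run on their differences. Signal over background is unknown, and the number of arrays limits the precision.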
